A study of Mus musculus with 8 samples.

Results

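A group of 5 inducible transcription factors was examined in cultured mouse oligodendrocyte progenitors (OLP) and immature oligodendrocytes (iOL): Klf6, Klf4 and Klf5 of the Klf/Sp family, and Junb and Fosl2 of the AP-1 family. They were chosen by their FPKM in these same tables, as inducible factors that were lower after Klf6 silencing, together with Klf6 itself, the target of the siRNA. Their differences are therefore given as descriptions, with no test. All 5 of 5 had a row among the 275 rows of the OLP table, and 0 of 5 among the 112 rows of the iOL table.

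The RNA-seq series held 8 cultures in 4 groups, 2 in each, all of primary cells from C57BL/6 mice. OLP, the dividing cells from which myelin-forming cells arise, were isolated from early postnatal cortex by panning on an antibody to the receptor Pdgfra after removal of microglia, and grown in medium that held PDGF-AA at 10 ng/ml and bFGF at 20 ng/ml. Electroporation (nucleofection) delivered either an siRNA that targets Klf6, the siKlf6 groups, or a non-targeting siRNA, the NT groups. The iOL groups were treated for 18 h with T3, the thyroid hormone that drives differentiation, at 40 ng/ml, and the OLP groups were not. By the study's general culture methods T3 was given in a differentiation medium to which cells were moved, so medium may differ between the stages. Per the study, OLP were harvested once attached, and iOL after a further 18 h. Time in culture thus differed as well, and neither medium nor time can be told apart from T3. The control thus carried siRNA and electroporation too, and both stages started from progenitors.

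The tables gave 1 pooled FPKM per condition (fragments per kilobase of transcript, scaled to the size of the library) and only rows that the authors had marked as significant. The pooled value hides the spread between the 2 cultures of a group, so no value below carries an error and no p-value was computed. The depth of each library is unknown. A gene without a row is called not listed, which leaves its level and its change unknown. Fold changes and log2 ratios, siKlf6 over NT, were computed here from the pooled FPKM.

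Klf/Sp proteins carry zinc fingers near the C-terminus that bind GC-rich boxes and the related CACCC sequence in promoters. AP-1 is a family of dimers: Jun proteins pair with each other or with Fos proteins through leucine zippers, and the dimers bind the palindrome-like site TGACTCA. Many of these genes belong to the immediate-early class, whose transcription is switched on within minutes by growth factors, cytokines or stress without new protein synthesis, and whose mRNA is short-lived. Cytokines that signal through the receptor gp130 and Stat3 are among the known inducers of Junb.

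Klf6, the silenced gene, was considered first because the sizes of the other falls are compared with its own. In OLP, Klf6 stood at 38.6 FPKM in NT and 20.0 FPKM in siKlf6, which left 51.8% of the control value (1.93-fold lower, log2 ratio -0.95). The gene lies on chr13:5860735-5869639 (NCBIM37, plus strand), and its annotated transcript has 4 exons and 4217 bases. By the order of log2 ratios it ranked 147 of 275 rows from the lowest, near the middle of the table, whose median was -0.98. Relative to that median Klf6 was at 0.029, so on this scale alone its sign turned. That median comes from rows selected as significant and says little about unlisted genes.

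Both other listed Klf factors were lower by a larger factor than Klf6, from low control levels. Klf5, an activator known from proliferating epithelial and smooth muscle cells, stood at 5.84 FPKM in control OLP and at 1.00 FPKM after silencing (5.82-fold lower, log2 ratio -2.54). Klf4, a factor of epithelial barrier formation and of pluripotency, went from 3.79 to 1.12 FPKM (3.37-fold lower, log2 ratio -1.75). The falls amounted to 4.83 and 2.66 FPKM, against 18.6 FPKM for Klf6. In NT the level of Klf4 was 0.098 times and that of Klf5 0.151 times that of Klf6, and in siKlf6 these quotients were 0.0561 and 0.0501. The order of Klf4 and Klf5 by level was thus exchanged between the conditions, and without the spread between cultures it cannot be judged whether the levels in siKlf6 differed. Klf6 remained by far the most abundant of these transcripts, with 80.1% of their summed FPKM in NT and 90.4% in siKlf6. Klf4 lies on chr4:55540013-55545347 (minus strand, 5 exons) and Klf5 on chr14:99697910-99712624 (plus strand, 4 exons), both in NCBIM37.

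Junb and Fosl2, the AP-1 factors that were picked, differed far more than the Klf factors. Of the other listed AP-1 genes, Jun (log2 ratio -0.98) and Fos (-2.19) fell less than Klf5 (-2.54), and Atf3 (-3.21) fell more. Junb, a Jun protein that can oppose as well as replace Jun, stood at 47.6 FPKM in NT and 3.26 FPKM in siKlf6 (14.6-fold lower, log2 ratio -3.87). Fosl2, a Fos protein also called Fra-2, stood at 25.8 FPKM in NT and 1.54 FPKM in siKlf6 (16.8-fold lower, log2 ratio -4.07). They kept 6.85% and 5.95% of their control values. Junb exceeded Klf6 in NT (1.23 times its level) and reached 0.163 times its level in siKlf6. The ratio of Junb to Fosl2 was 1.84 in NT and 2.12 in siKlf6, so these transcripts fell by nearly the same factor, and their order by log2 ratio was exchanged when 1 FPKM was added to both conditions (-3.51 for Junb, -3.40 for Fosl2). Ranked from the lowest log2 ratio, Fosl2 was at place 7 and Junb at place 9 of 275. Junb is a single-exon gene on chr8:87500811-87502617 (minus strand), and Fosl2 has 4 exons on chr5:32438845-32460204 (plus strand), in NCBIM37.

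**Figure D1:**
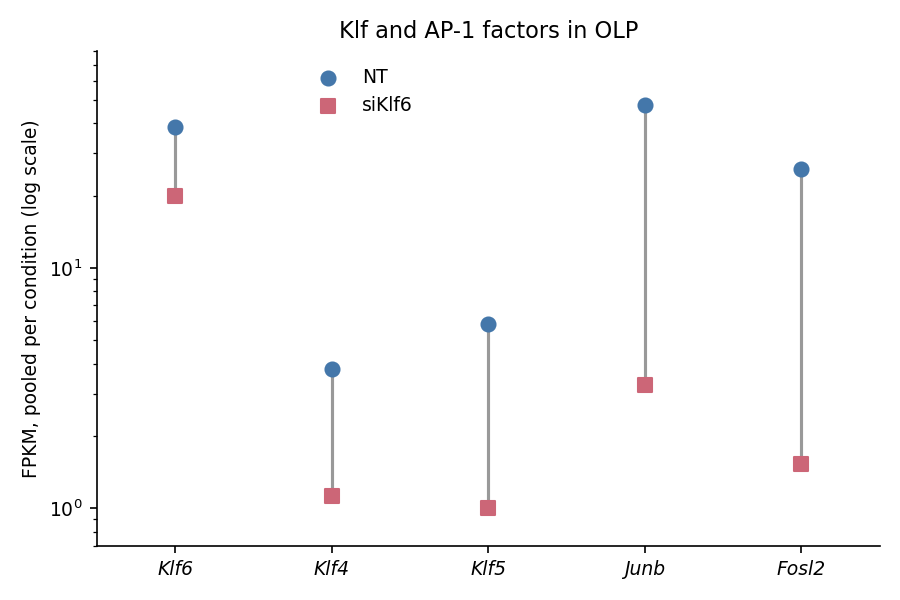
Pooled FPKM of Klf6, Klf4, Klf5, Junb and Fosl2 in OLP, on a log scale, with circles for NT and squares for siKlf6, 1 value per condition and no error bars because none could be computed. Each square lies under its circle. The gap is shortest for Klf6 (38.6 to 20.0 FPKM) and longest for Fosl2 (25.8 to 1.54 FPKM), and only the sign of Klf6 turns when the median of the listed rows is subtracted.

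Of the 5 factors, 5 were lower in siKlf6, as were 78.5% of all OLP rows. A fall of at least 2-fold was found in 4 of 5, with Klf6 just short of it, against 47.6% of all OLP rows. The median log2 ratio was -2.54 over the 5 and -0.98 over the 275 rows. Because the factors were picked on this contrast, nothing is read from these counts. In terms of size, the fold of Fosl2 was 8.70 times that of Klf6, that of Junb 7.56 times, that of Klf5 3.01 times and that of Klf4 1.75 times. Without values for single cultures it cannot be said whether neighbours in this order differed beyond their spread.

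**Figure D2:**
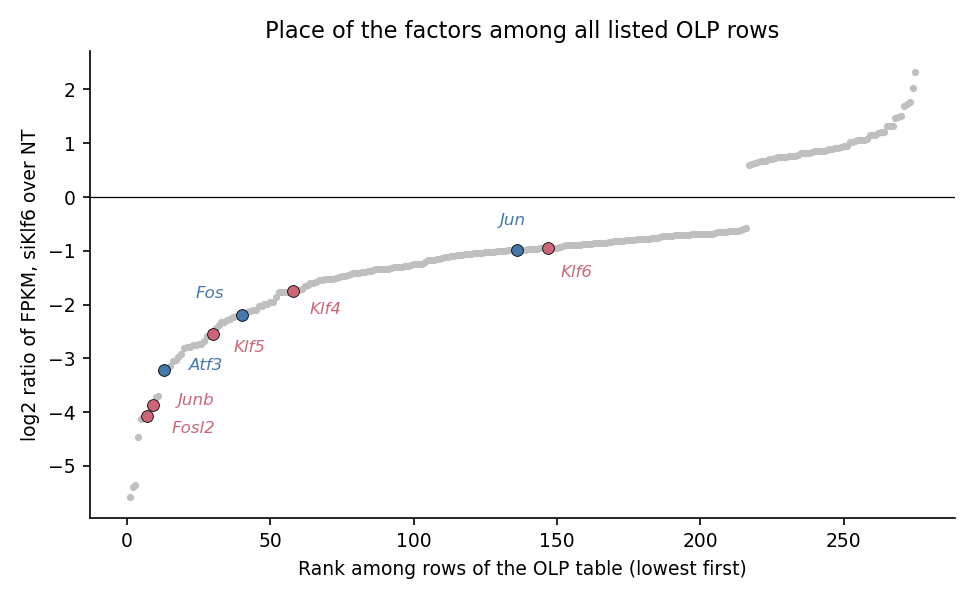
Log2 ratio of FPKM, siKlf6 over NT, of every row of the OLP table in rank order, with the 5 factors in red and the other listed AP-1 genes in blue. Fosl2 (place 7), Junb (place 9) and Atf3 (place 13) stand at the lower end, Jun (place 136) and Klf6 (place 147) near the middle, where subtracting the table's median turns the sign of Klf6. The place of Atf3 rests on a value below 1 FPKM in siKlf6. The table holds significant rows only, and no row lies near 0.

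Promoter windows were read for the 5 factors, to show what sequence lies at their start sites. RefSeq windows of 250 bases before to 50 after the start were held for 4 of 5 (not Klf5), and each matched NCBIM37 at exactly 1 place on its chromosome. In the lines that follow, written 5′ to 3′ on the strand of the gene, capitals mark matches to the GC box GGGCGG or to CACCC on either strand.
Klf6, chr13:5860485-5860784, plus strand: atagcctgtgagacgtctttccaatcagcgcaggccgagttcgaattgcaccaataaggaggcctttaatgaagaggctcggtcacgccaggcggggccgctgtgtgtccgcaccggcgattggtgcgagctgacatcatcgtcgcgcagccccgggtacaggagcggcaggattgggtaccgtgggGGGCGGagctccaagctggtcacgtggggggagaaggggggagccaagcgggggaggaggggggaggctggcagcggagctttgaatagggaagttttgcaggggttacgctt
Klf4, chr4:55545298-55545597, minus strand: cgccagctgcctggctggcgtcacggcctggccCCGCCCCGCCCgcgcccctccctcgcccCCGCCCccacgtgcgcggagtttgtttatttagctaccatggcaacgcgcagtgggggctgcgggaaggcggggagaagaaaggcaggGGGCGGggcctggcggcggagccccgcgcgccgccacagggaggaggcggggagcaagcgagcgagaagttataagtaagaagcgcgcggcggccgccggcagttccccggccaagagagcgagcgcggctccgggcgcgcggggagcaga
Junb, chr8:87502598-87502897, minus strand: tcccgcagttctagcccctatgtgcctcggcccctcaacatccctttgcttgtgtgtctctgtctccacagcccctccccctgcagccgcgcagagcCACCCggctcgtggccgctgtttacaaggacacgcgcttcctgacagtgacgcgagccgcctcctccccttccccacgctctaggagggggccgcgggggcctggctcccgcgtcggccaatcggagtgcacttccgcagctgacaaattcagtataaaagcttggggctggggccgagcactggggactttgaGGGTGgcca
Fosl2, chr5:32438595-32438894, plus strand: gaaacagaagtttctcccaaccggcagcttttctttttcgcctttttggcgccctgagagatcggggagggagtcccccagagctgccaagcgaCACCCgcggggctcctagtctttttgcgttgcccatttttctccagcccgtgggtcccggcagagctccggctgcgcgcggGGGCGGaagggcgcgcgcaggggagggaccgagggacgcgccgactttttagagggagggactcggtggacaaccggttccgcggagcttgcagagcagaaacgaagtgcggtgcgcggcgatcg

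With the start counted as 0, the Klf6 window held 1 GC box, from -63 to -58. That of Klf4 held 4, of which the first and second share a base (CCGCCC on the strand of the gene), and was the richest in G and C at 74.3%. Fosl2 had 1 GC box and 1 CACCC, and Junb had 2 CACCC matches and no GC box. Among all 32851 RefSeq windows of this length, 35.7% held a GC box and 57.5% held CACCC. Among genes of the OLP table with a window, 79.2% held a GC box and 74.0% held CACCC in at least 1 of their windows. Windows were held for only 192 of 283 symbols of that table, so a comparison with it is void, and nothing is read from the matches in these 4 windows. The AP-1 site TGACTCA or its reverse TGAGTCA (5.20% of all windows), the CRE TGACGTCA (1.79%), the Stat site TTCCNGGAA (1.15%) and the CArG box bound by serum response factor (1.63%) had no match in the 4 windows, which says only that these letters are not in them. No match to one motif overlapped a match to another. A match is a description and not evidence of binding.

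**Figure D3:**
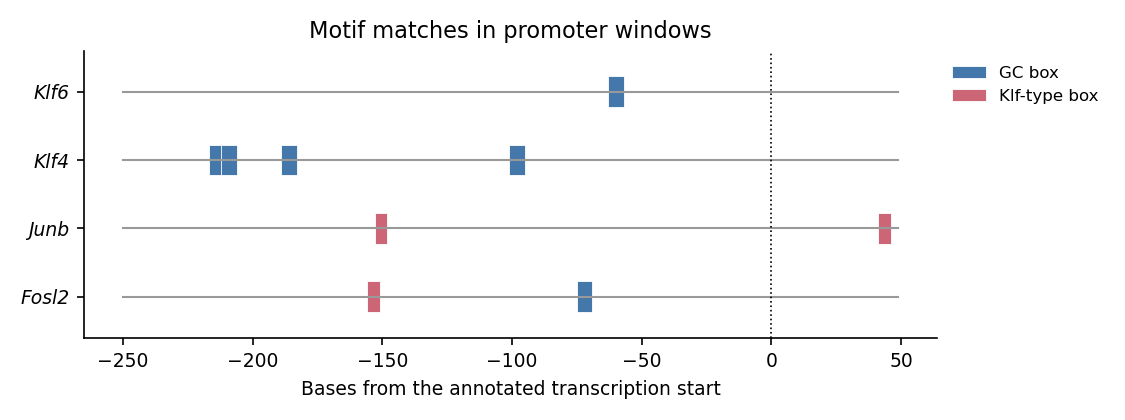
Position of GC box matches (GGGCGG, blue) and CACCC matches (red, labelled Klf-type box) in the 300 bases around the annotated start of Klf6, Klf4, Junb and Fosl2, in bases from the start (dotted line). Klf4 has 4 GC boxes between -217 and -96, and Junb has a match from 41 to 45.

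The rest of the AP-1 family was then counted from a list of 14 genes. In OLP 5 were listed and 5 were lower, 4 of them by at least 2-fold, beside 78.5% and 47.6% of all OLP rows. The list includes Junb and Fosl2, which were picked on these values. Beyond Junb and Fosl2, these were Fos, Jun and Atf3. Fos, the founding partner of Jun, went from 80.7 to 17.7 FPKM (log2 ratio -2.19). Atf3, a stress-induced relative that can repress transcription, went from 6.58 to 0.709 FPKM (log2 ratio -3.21). Its fold rests on a value below 1 FPKM. Jun itself, the most abundant of them, went from 137 to 69.3 FPKM (log2 ratio -0.98), 1.97-fold lower and close to the 1.93-fold of Klf6. The other 9, including Fosb, Fosl1, Jund and Batf, were not listed.

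Since FPKM is scaled to transcript length, levels of these genes can be set side by side. The 5 listed AP-1 transcripts summed to 297 FPKM in NT and 92.5 FPKM in siKlf6. Within that sum the make-up differed. Jun accounted for 46.0% in NT and 74.9% in siKlf6, whereas Junb went from 16.0% to 3.52% and Fosl2 from 8.68% to 1.66%. Fos went from 27.1% to 19.1%. Accordingly, the ratio of Jun to Junb was 2.87 in NT and 21.3 in siKlf6, and that of Fos to Fosl2 was 3.13 in NT and 11.5 in siKlf6. These quotients within a condition do not depend on how the conditions were scaled to each other. Fewer expressing cells and less RNA per cell cannot be told apart in bulk cultures.

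**Figure D4:**
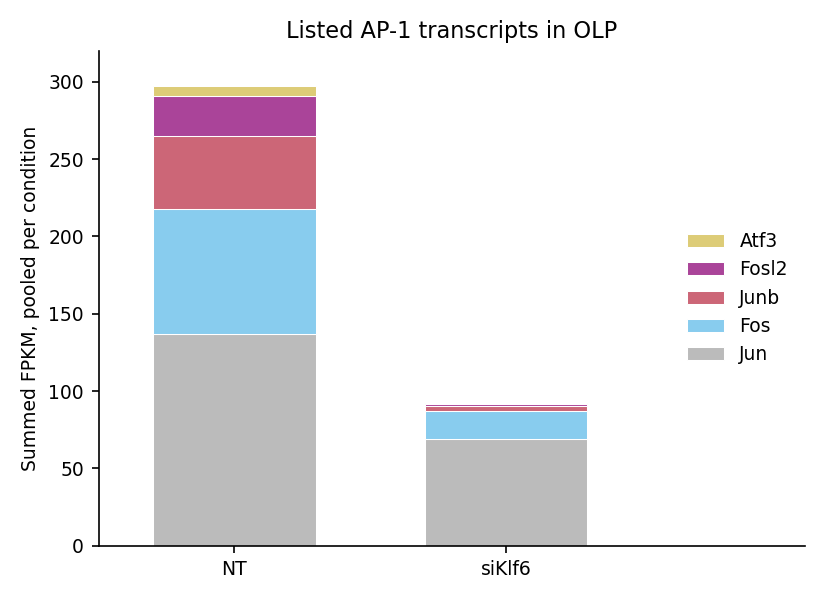
Summed FPKM of the 5 listed AP-1 transcripts in OLP, stacked by gene, for NT and siKlf6 (1 pooled value each, no error bars). The stack is 297 FPKM high in NT and 92.5 FPKM in siKlf6. Jun fills 46.0% of the first and 74.9% of the second, and Junb and Fosl2 shrink to 3.52% and 1.66%.

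Other Klf/Sp genes were not listed: of 26 family members, 3 had a row in OLP and 23 had none. All 3 were lower, as were 78.5% of all OLP rows, and they are the Klf factors picked on these values. Klf7, Klf9, Klf10 and Sp1 were among those without a row. Exact stretches shared by some pairs of paralogues were looked up in the longest annotated coding transcript of each gene. The longest stretch common to Klf6 and Klf4 was 15 bases, at positions 1087 to 1101 of the Klf6 transcript and within the coding part of both, with the sequence cacatgaagaggcac. That for Klf6 and Klf5 was 12 bases, for Junb and Jun 14 bases, and for Fosl2 and Fos 16 bases (ttgtcttcacctaccc). No longer exact run was shared within these pairs. Inexact matches and other paralogues, such as Klf7 and Jund, were not examined, so sharing of reads was not tested.

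Both signs occurred among other immediate-early genes with a row. A list of 50 other immediate-early and related inducible genes was counted, which holds no AP-1 or Klf gene, since those were counted above. Of the 50, 15 were listed in OLP, 13 lower and 2 higher, against 78.5% lower and 21.5% higher among all OLP rows. Nothing is read from these counts. The median log2 ratio of the 15 was -1.39. Within this list the strongest fall by log2 ratio was that of Csrnp1, a nuclear protein induced by Axin. It went from 16.5 to 2.45 FPKM (log2 ratio -2.75). Without a pseudocount this fall was smaller than those of Fosl2, Junb and Atf3. The ratio of Atf3 rests on a low value in siKlf6 (0.709 FPKM), so its order against Csrnp1 depends on the pseudocount. Maff, a small Maf protein with a leucine zipper but no activation domain, went from 20.2 to 3.74 FPKM (-2.44), and Dusp5, a phosphatase that inactivates Erk in the nucleus, from 8.29 to 1.90 FPKM (-2.12).

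The growth-arrest genes Gadd45g and Gadd45b were lower too. Gadd45g had the largest loss on the FPKM scale on this list, from 161 to 47.0 FPKM (log2 ratio -1.77), and Gadd45b went from 6.57 to 1.8 FPKM (-1.87). Among transcription factors, Cebpb went from 3.29 to 0.966 FPKM (-1.77), Nfil3 from 11.9 to 3.93 FPKM (-1.59), Bhlhe40 from 34.3 to 13.1 FPKM (-1.39) and Egr3 from 1.88 to 0.739 FPKM (-1.34). Zfp36, which encodes a protein that promotes decay of AU-rich mRNA, went from 4.50 to 1.95 FPKM (-1.21).

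Smaller falls were those of Trib1 (-0.79), Zfp36l1 (-0.68) and Myc (-0.63), all above the table's median of -0.98, so that relative to it their sign turned, at 0.19, 0.30 and 0.35. Dusp6, a cytoplasmic Erk phosphatase induced by growth factor signals, was higher, from 104 to 165 FPKM (log2 ratio 0.67). Arc, an activity-regulated cytoskeletal gene, was also higher, from 14.9 to 24.2 FPKM (0.70). The phosphatases Dusp5 and Dusp6 thus had opposite signs in the same cultures, and 35 genes of the list were not listed, among them Egr1 in OLP.

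**Figure D5:**
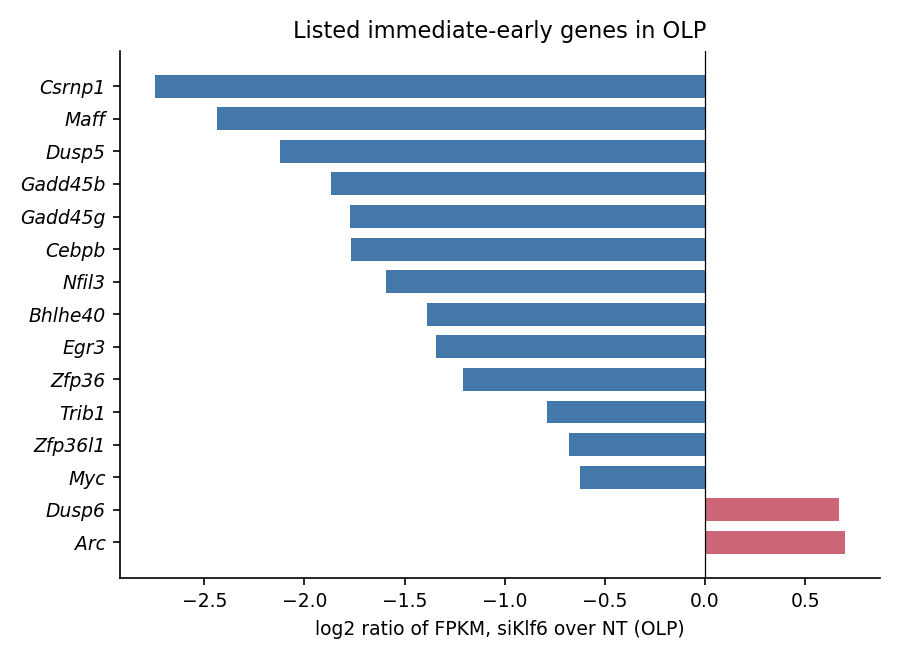
Log2 ratio of FPKM, siKlf6 over NT, for the 15 genes with an OLP row on the list of 50 immediate-early genes, which leaves out the AP-1 and Klf genes, with bars from 0, blue for lower and red for higher. They run from -2.75 for Csrnp1 to 0.70 for Arc. Subtracting the table's median of -0.98 turns the sign of Trib1, Zfp36l1 and Myc.

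In iOL the picture could not be completed. None of the 26 Klf/Sp genes and none of the 14 AP-1 genes was listed there, so the silencing of Klf6 at that stage cannot be given and a difference between the stages was not tested. Of the 50 immediate-early genes, 2 were listed in iOL and 2 were higher, as were 54.5% of all iOL rows. Egr1, a zinc finger factor that binds GC-rich sites, went from 9.01 to 21.9 FPKM (log2 ratio 1.28). Arc went from 4.03 to 7.11 FPKM (0.82). Arc was thus higher in siKlf6 at both stages. OLP and iOL values come from separate tables and libraries.

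Markers of other cell types were examined beside these values. Of the astrocyte markers 2 of 10 were listed in OLP, with opposite signs. Gfap went from 3.06 to 0.0752 FPKM (log2 ratio -5.35, place 3 of 275 from the lowest), a fold that rests on a value near 0. Sox9, also expressed by OLP, went from 53.4 to 87.8 FPKM (0.72). Their sum, 56.4 FPKM in NT and 87.9 FPKM in siKlf6, was mostly Sox9. Of the microglia markers 2 of 12 were listed, Cd14 (1.91 to 0.146 FPKM) and Irf8 (1.81 to 0.667 FPKM), summing to 3.72 FPKM in NT and 0.813 FPKM in siKlf6, while the defining markers Aif1 and Csf1r were not listed. Tubb3 was the 1 of 7 neuronal markers listed (22.0 to 6.62 FPKM) and Kdr the 1 of 7 endothelial and pericyte markers (0.764 to 0.323 FPKM). No fibroblast marker (0 of 5) and no gene of the OLP marker list (0 of 8) was listed in OLP. The study counts Sox9 among its OLP markers, but here it was counted with the astrocyte markers. Sox9 alone does not separate these types, so the labelled cell type could not be checked there. Of 10 oligodendrocyte markers, 1 was listed at each stage, the tight junction gene Cldn11, lower in OLP (18.2 to 8.97 FPKM) and in iOL (17.7 to 9.83 FPKM). In iOL none of the astrocyte, microglia, neuronal, endothelial or fibroblast markers was listed, while of the 8 OLP markers the lineage factor Sox10 was (42.1 to 25.9 FPKM). Per the study, nearly all cells at plating were OLP by their markers. It also reports that RNA-seq cultures were harvested before any change in viability, by a caspase cleavage assay. Cells of these other types and the levels of unlisted markers are unknown from the tables. The part of the listed markers in the results for the 5 factors was not tested.

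The 3′ end of the transcripts was described by counts of ATTTA, the core of the AU-rich elements that shorten mRNA life. Junb had 2 in a 3′ untranslated region of 483 bases (4.14 per kb), Klf6 had 7 in 3110 bases (2.25 per kb), Fosl2 had 8 in 4642 bases (1.72 per kb) and Klf4 had 1 in 984 bases (1.02 per kb). The annotated region of Klf5 was only 76 bases long and held none. Fos (4.91 per kb) and Jun (3.24 per kb) were also dense. The median over 18216 coding genes with a region of at least 100 bases was 1.20 per kb, and over 263 genes of the OLP table it was 1.57 per kb. Klf4 thus lay below both medians and Klf6, Junb and Fosl2 above both.

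Transcripts with the most similar levels in both conditions were looked up by Euclidean distance over the log2 FPKM in NT and siKlf6. Nearest to Fosl2 was Serpina3n, an acute-phase protease inhibitor (27.9 to 1.27 FPKM, distance 0.295), followed at a distance of 0.925 by the transcription cofactor gene Arid5a. Nearest to Junb was the row of the microRNA gene Mir124a-3 (52.0 to 3.50 FPKM, distance 0.166), whose FPKM is uncertain because FPKM is poorly determined for so short a transcript, and then Sbno2 (35.8 to 5.60 FPKM, distance 0.884). Klf5 was nearest to Nefl and Ccl2 (distances 0.405 and 0.451), and Klf4 to Fam43a and Pi4k2b (0.173 and 0.279). Klf6 had close neighbours in Ndfip2 and Ing1 (0.0618 and 0.0719). The likeness rests on 2 pooled values a gene and follows from level as well as change.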

How the data were processed

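RNA from 8 cultures, 2 in each of 4 groups taken from the sample titles, was sequenced. Per the labels and the study's methods, the authors mapped adapter-trimmed reads to mm9 with TopHat2, quantified transcripts with Cufflinks, and compared conditions with Cuffdiff under default settings. The submitters' processing notes also name CASAVA 1.8. Other versions were not given in the sources used here. The authors deposited 2 tables, 1 per stage, of significant rows, with expression as FPKM pooled per condition. The authors' log2 fold changes, test statistics, p-values and q-values in those tables were not used. Strand use in counting was not given in the sources used here. Because cultures were pooled and other rows are absent, neither error nor depth can be given.

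Ratios were computed with Python 3.11.15 without a pseudocount, genes being matched by symbol (7 OLP and 6 iOL rows name several genes, none of them a gene named here). Calls were a 2-fold difference. Loci, transcripts and 3′ regions came from GENCODE vM1 (NCBIM37, the same build as mm9), taking the longest coding transcript with a 3′ region, and promoters from RefSeq (GRCm38.p6), placed on NCBIM37 by exact match. The ratio and motif routines were tested on simulated data. Named were the 5 factors, every listed gene of the Klf/Sp, AP-1 and immediate-early lists, listed cell type markers, and the 2 nearest rows of each factor. The members and lists were chosen with earlier results of these data known. Alternatives were a pseudocount of 1 or 0.1 FPKM, subtraction of the table's median, at least 1 FPKM in both conditions, a 2-fold minimum, rows of a single gene, and a shorter promoter window.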

Additional observations from a re-analysis of the deposited data

How the results depend on the processing

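No paired analysis was possible because each condition has a single pooled value, and for the same reason leaving out each replicate was not run. Depth is unknown, so its limits cannot be given. With 1 FPKM added the log2 ratios were -0.92 for Klf6, -1.17 for Klf4, -1.77 for Klf5, -3.51 for Junb and -3.40 for Fosl2, so Junb then stood lowest, because a constant shrinks the ratio of the lower levels more. With 0.1 FPKM added they were -1.67 for Klf4, -2.43 for Klf5, -3.83 for Junb and -3.99 for Fosl2. Minus the median of the OLP rows they were 0.029 for Klf6, whose sign turned, -0.78 for Klf4, -1.56 for Klf5, -2.89 for Junb and -3.09 for Fosl2, by construction of that setting. A minimum of 2-fold kept 4 of the 5 factors and 1 of the 2 immediate-early genes listed in iOL (Egr1). Within 100 bases before and 50 after the start, motif matches numbered 1 in Klf6, 0 in Klf4, 1 in Junb and 1 in Fosl2. Counts of listed members and of listed Klf/Sp, AP-1 and OLP immediate-early genes stayed within 1.5 times of the value given under every filter run, the 2-fold minimum included.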

Other observations

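Genes of the gp130 receptor pathway were counted in the same tables from a list of 16. In OLP 7 were listed and 7 were lower, 4 of them by at least 2-fold, with a median log2 ratio of -1.53, while 78.5% of all OLP rows were lower and 47.6% by at least 2-fold. Socs3, an inhibitor that the pathway induces, stood at 46.6 FPKM in NT and 7.02 FPKM in siKlf6 (log2 ratio -2.73), a level in NT close to that of Junb. Osmr, the oncostatin M receptor, was at the lowest place of the table by log2 ratio (-5.57), from 1.49 to 0.0313 FPKM, and its fold rests on a value near 0. In iOL 0 of 16 were listed.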
